A study of Mus musculus with 1392 samples.

Results

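The loci described here belong to 7 immediate early genes: Fos and Fosl2, Jun, Junb and Jund, Atf3 and Egr1. Their members are the 75 peaks, of 115295 in the deposited table, that overlap 1 of 7 windows of 35 to 90 kb set around these genes in the mouse build mm9, and 2 of the 75 cross a window edge. The table comes from plate-based single-cell ATAC-seq, where open chromatin is cut and tagged by a transposase, so a count at a peak reports open DNA and not RNA. The cells were haematopoietic stem cells (HSCs) of C57BL/6 mice, sorted from bone marrow by the surface phenotype LSK CD150+ CD48- CD34- and for Vwf, which encodes the clotting protein von Willebrand factor. All sorted cells share this phenotype, the 2 groups differ by being labelled young or old, and no treatment or genotype is named. The sources used here do not give ages in months, the way Vwf was detected or the number of animals. The 332 young cells form 2 numbered sets (181 and 151 cells) and the 1060 old cells form 3 (306, 380 and the remaining cells). The study asked whether the mix of HSC subtypes shifts with age; at these loci the question becomes whether chromatin of the AP-1 and Egr1 genes differs in openness between the ages.

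Immediate early genes are transcribed within minutes of a stimulus, without new protein synthesis, and several of them encode transcription factors. AP-1 is a dimer, for example of a JUN protein with a FOS or ATF protein. It binds short palindromic DNA sites and relays growth factor, cytokine and stress signals to target genes. EGR1 is a zinc finger factor induced by many of the same signals, and in mouse bone marrow it is known for keeping HSCs quiescent and in their niche.

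The sequences just before the annotated start of 5 of these genes are shown. Those of Jun, Fos, Atf3 and Fosl2 hold matches to the motifs marked in capitals. Jund is shown because its locus gave one of the clearest differences between ages. RefSeq promoters of assembly GRCm38.p6 matched 6 of the 7 genes. Each line gives the last 150 bases before the start, 5′ to 3′ on the gene's strand, and capitals mark the CRE core TGACGT (in Atf3 as its complement, read on the other strand), the Jun-type site TGACATCA, the MEF2 site or the EGR site GCGNGGGCG. In GRCm38.p6 the Jun stretch is chr4:95052223-95052372 (minus strand), Fos is chr12:85473740-85473889 (plus), Atf3 is chr1:191183334-191183483 (minus), Fosl2 is chr5:32136322-32136471 (plus) and Jund is chr8:70697589-70697738 (plus).
Jun: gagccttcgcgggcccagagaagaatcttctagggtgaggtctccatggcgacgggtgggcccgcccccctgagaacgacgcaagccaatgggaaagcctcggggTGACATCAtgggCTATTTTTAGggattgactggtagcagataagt
Fos: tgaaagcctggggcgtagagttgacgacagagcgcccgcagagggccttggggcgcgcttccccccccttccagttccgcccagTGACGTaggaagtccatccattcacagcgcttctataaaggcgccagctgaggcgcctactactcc
Atf3: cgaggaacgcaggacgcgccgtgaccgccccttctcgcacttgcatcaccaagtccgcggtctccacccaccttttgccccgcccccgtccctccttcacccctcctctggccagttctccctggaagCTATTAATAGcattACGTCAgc
Fosl2: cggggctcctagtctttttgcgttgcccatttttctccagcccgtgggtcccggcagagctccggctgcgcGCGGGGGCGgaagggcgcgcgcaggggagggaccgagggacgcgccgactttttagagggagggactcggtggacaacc
Jund: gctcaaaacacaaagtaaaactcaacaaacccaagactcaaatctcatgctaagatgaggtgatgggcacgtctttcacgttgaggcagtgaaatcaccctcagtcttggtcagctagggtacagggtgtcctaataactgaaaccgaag
A search of both strands over the 250 bases before each start, with overlaps allowed, found TGACGT in Fos (positions -66 to -61) and, on the other strand, in Atf3 (-8 to -3), and in 6.46% of all 32817 promoters. TGACATCA was found in Jun (-45 to -38) and in 2.93% of promoters. The MEF2 site lay in Jun (-33 to -24) and Atf3 (-22 to -13) and in 0.509% of promoters, and GCGNGGGCG lay in Fosl2 (-79 to -71) and in 4.70%. The AP-1 site TGANTCA (6.75% of promoters) and the CArG box (1.47%), the site of serum response factor, were in none of these 6 windows. Sites further than 250 bases before a start were not looked for. Egr1, the gene without a matched promoter, was not searched. The genes may therefore hold such sites elsewhere. CCAAT was found in Jun and Junb (33.8% of promoters) and TATAAA in Fos (12.4%). These matches describe letters and not bound sites, and since the peaks are named in mm9 no peak was placed on these sequences.

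Total counts ran from 1159957 to 4181770 per set, and the median cell held 3604.5 to 11807 counts. The labels do not tie a set to an animal, pool or plate, so the p-values rest on a spread between sets that may be technical. No set mixes ages, and hence age and set preparation cannot be told apart. No 2 cells had identical columns. Expression, the genes of the sort and markers of other cell types were not analysed here. Counts were summed per set, and levels are given in CPM, that is counts over a set's TMM-scaled total on the usual CPM scale, so that sets of different depth can be set side by side. The 75 peaks held 14802 counts, 0.127% of all. Of these peaks, 50 passed the filter on low counts and were tested, and the other 25 held 10 to 51 counts over all sets. The tested peaks were well covered, with a median at the 76.1st percentile of CPM among all tested peaks.

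Old cells were more open than young cells at 6 of these peaks, 2 each at Fos, Jund and Egr1, by 2.34 to 6.51 times. They were less open at 1 peak, at Fosl2, by 1.99 times. A peak was called at an adjusted p under 0.05 (edgeR quasi-likelihood test, Benjamini-Hochberg over all 58167 tested peaks). These 7 called peaks were 14% of the 50 tested, where 3.17% of all tested peaks were called. In the direction of higher in old, 12% of the tested peaks at these loci were called, against 1.39% of all. Higher in young was 2% against 1.78%. The filter on low counts asks for 2 sets, which 1 age alone can supply. At the narrow called Egr1 peak and both called Jund peaks, at least 1 young set fell short of its level. Those peaks met the filter through the old sets, where they were high. Without any count filter, 8 of 75 peaks at these loci were called higher in old, against 1.06% of all. In 8 peaks (16%) every old set lay above every young set, against 16.4% of all peaks, and in 11 peaks (22%) every old set lay below, against 16.7%. The shares of such separated peaks were thus near the background or little above it. The loci did not move as a block: the log2 fold change of old over young was above 0 in 26 and below 0 in 24 of the tested peaks, with a median of 0.01, beside -0.01 over all tested peaks.

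**Figure D1:**
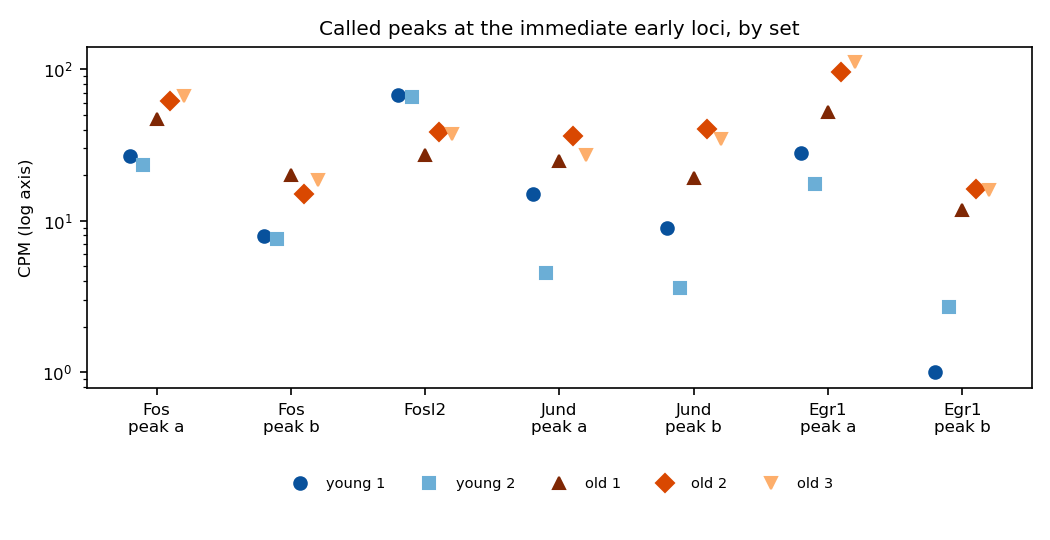
CPM (log axis) in each of the 5 sets at the 7 called peaks of the Fos, Fosl2, Jund and Egr1 loci. Every old set lies above both young sets at 6 peaks and below both at the Fosl2 peak.

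The 6 raised peaks came as pairs at Fos, Jund and Egr1, on the same side of a reference peak. The share of all tested peaks at such a distance was not worked out. Each lay 2981 to 4664 bp from the strongest peak of the young sets at its own locus, measured edge to edge, and always towards higher coordinates. In RefSeq (GRCm38.p6) Fos and Jund are read in that direction, with gene lengths of 3385 and 2878 bp. The reading direction of Egr1 was not looked up, so a common place relative to the genes is not shown. The raised peaks were 246 to 1000 bp wide, and 4 of them were among the 7 tested peaks here narrower than 300 bp. Of all tested peaks of that width 1.28% were called higher in old. The narrow raised peaks include both called Jund peaks and the narrow called Egr1 peak, which met the filter through the old sets. The contrast with that share is therefore a description and no further evidence. At all 7 loci the strongest peak of the young sets was not called. Whether the strongest peaks cover the gene starts was not tested, since no mm9 annotation was used.

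**Figure D2:**
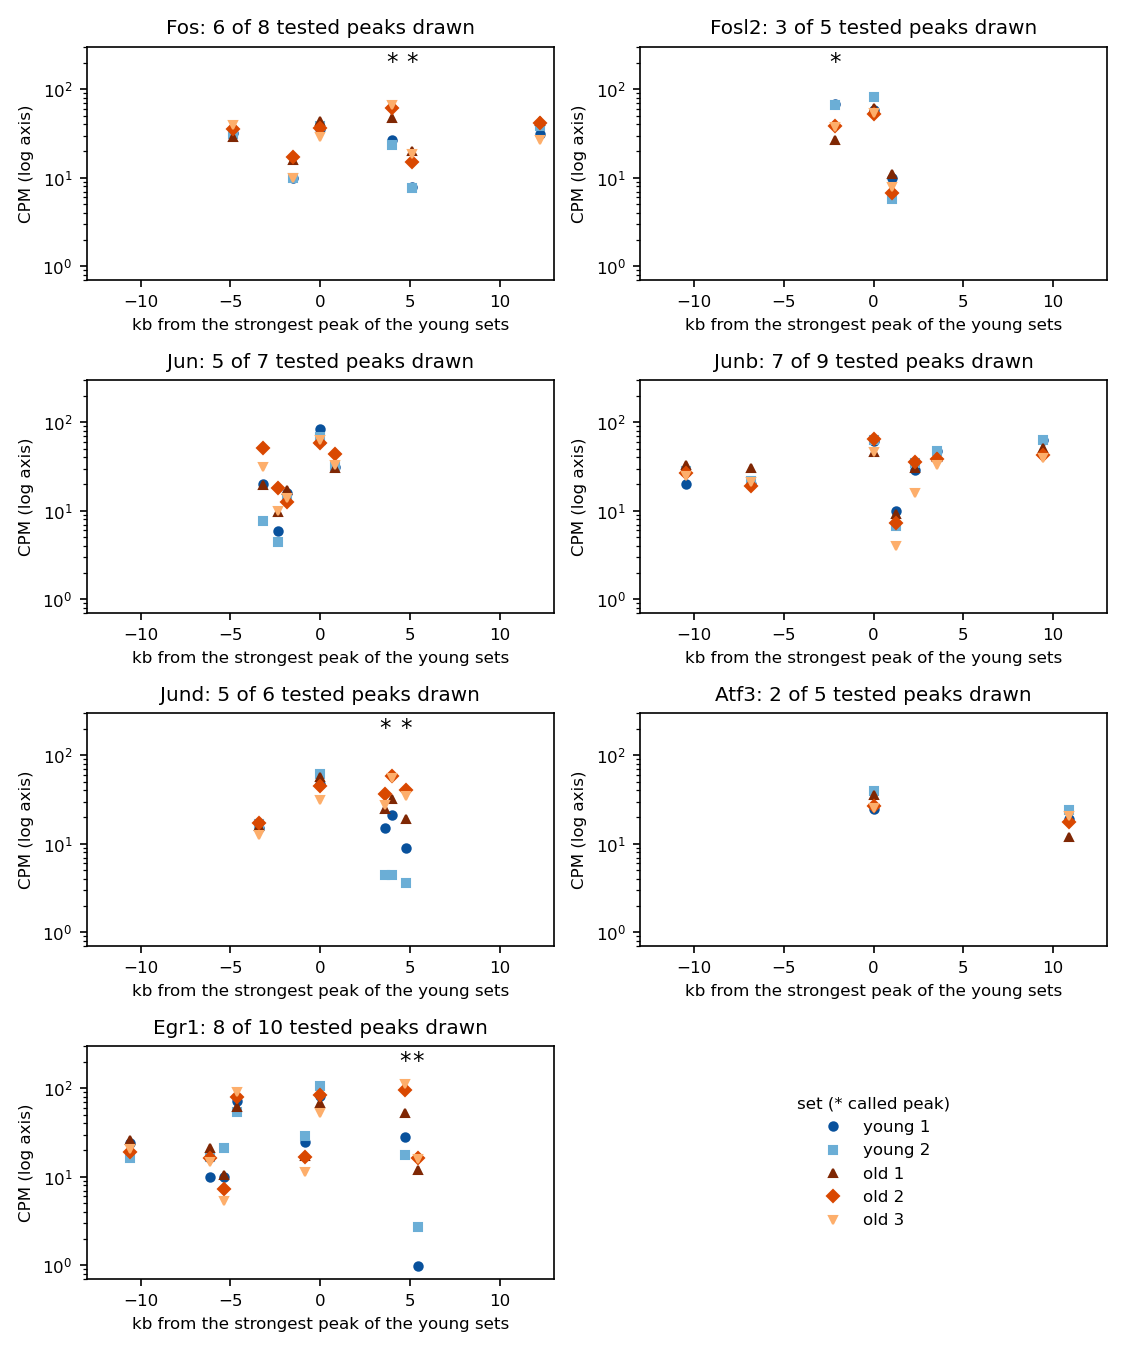
CPM (log axis) of tested peaks within 13 kb of each locus's strongest young peak, by distance in kb along the chromosome and by set, with asterisks at called peaks. The asterisks of Fos, Jund and Egr1 all lie to the right of 0, and that of Fosl2 to the left.

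Fos encodes the FOS protein, which pairs with JUN proteins to form AP-1. Its window (chr12:86790000-86850000, mm9) held 15 peaks, 8 of them tested. The strongest young peak, chr12:86814357-86815056, stood at 35.9 CPM (young 1), 38.6 (young 2), 43.3 (old 1), 37.0 (old 2) and 28.6 (old 3). The ages overlapped there, with a log2 fold change of -0.01 (95% interval -0.48 to 0.45), and its sign changed with the processing.

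Downstream of it, chr12:86818231-86819216 was at 26.9 CPM (young 1), 23.3 (young 2), 47.2 (old 1), 62.0 (old 2) and 67.1 (old 3). All 3 old sets were above both young sets. The strongest young peak was picked for its young level, so other peaks have a lower young mean by that choice. In each old set chr12:86818231-86819216 stood above that reference, which is a description and was not tested. The mean was 25.1 ± 2.52 CPM in young (SD, n = 2 sets) and 58.8 ± 10.3 in old (n = 3), a log2 fold change of 1.23 (SE 0.24, edgeR adjusted p = 0.000853). Without young 2 the log2 value was 1.13 and the adjusted p 0.0628.

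A narrow peak further on, chr12:86819720-86819966, had 7.97 and 7.63 CPM in the young sets, beside 20.2, 15.1 and 18.6 in the old. The groups did not overlap. Its log2 fold change was 1.22 (SE 0.35, edgeR adjusted p = 0.0382), and it passed in 5 of 13 alternative analyses. With any 1 of the 5 sets left out it was not called (adjusted p = 0.0606 to 0.325). As a restatement of these calls in shares, the 2 peaks took 17.3% and 15.0% of all Fos counts in young, but 26.0%, 29.4% and 34.7% in old. The other 6 tested peaks had log2 fold changes of -0.33 to 0.56, and none was called.

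Fosl2 encodes FRA-2, a FOS family protein that is induced more slowly than FOS and lacks its strong activation domain. Its window (chr5:32410000-32480000) held 6 peaks, 5 tested, and it was the only one of the 7 loci with a peak called higher in young. At chr5:32435257-32436245 the young sets stood at 67.7 and 66.0 CPM and the old sets at 27.0, 38.6 and 37.2. The 2 young sets nearly coincided and both lay well above every old set. The mean was 66.9 ± 1.26 CPM in young and 34.3 ± 6.30 in old, a log2 fold change of -0.99 (SE 0.22, edgeR adjusted p = 0.00313). The peak lay 1069 bp before the strongest young peak in the reading direction of the gene. The call was lost without young 2 (-0.99, adjusted p = 0.0515), without old 1 (-0.78, 0.0580) and when every cell was thinned to 1 depth (-1.07, 0.148).

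The strongest young peak of Fosl2, chr5:32437314-32438483, was at 57.8 and 81.7 CPM in the young sets, beside 62.2, 53.1 and 54.5 in the old. Young 1 fell among the old sets there, and the log2 fold change of -0.32 (95% interval -0.73 to 0.08) was not called. A further Fosl2 peak, chr5:32414664-32415386, far upstream, had 26.9 and 20.2 CPM in young and 11.0, 13.0 and 11.3 in old. Its groups were apart as well, but it missed the threshold (log2 fold change -0.96, SE 0.30, edgeR adjusted p = 0.0681); it was singled out after its values were seen.

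Jun encodes c-JUN, the JUN protein that activates its own gene in the textbook account and drives proliferation in many cell types. In its window (chr4:94690000-94745000) 7 of 11 peaks were tested and none was called. The strongest peak, chr4:94718716-94719661, gave 83.7 and 67.3 CPM in the young sets, beside 62.7, 58.3 and 63.1 in the old. The old sets were all lower, by a margin smaller than the gap between the young sets (log2 fold change -0.28, SE 0.20, edgeR adjusted p = 0.554).

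The Jun peak with the smallest p, chr4:94716733-94716936, ran the other way. It had 5.98 and 4.49 CPM in young and 9.70, 18.2 and 9.96 in old, from 10 counts or fewer in each young set. Its log2 fold change of 1.30 (SE 0.43) did not pass (edgeR adjusted p = 0.0904). A neighbour, chr4:94715907-94716153, was singled out after its values were seen. It stood at 19.9 CPM in young 1 but 7.63 in young 2, and at 19.4, 51.1 and 31.2 in the old sets. Young 1 matched old 1, so the ages overlapped, and the log2 fold change of 1.44 (SE 0.49) was not called (edgeR adjusted p = 0.165), though it passed in 7 of 14 alternatives. Its log2 value was 0.74 without young 2 and 2.10 without young 1. Both peaks lie at lower coordinates than the strongest one, the direction in which RefSeq reads Jun.

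Junb encodes JUNB, a weaker activator than c-JUN that restrains proliferation of HSCs and myeloid cells. Its window (chr8:87480000-87515000) held 11 peaks, 9 of them tested, and its tested peaks had the narrowest range of fold changes among the JUN loci. The strongest peak, chr8:87499934-87500775, was at 61.8 and 63.7 CPM in young and 46.4, 65.1 and 46.5 in old, with old 2 above both young sets. The smallest p was at chr8:87509137-87510486, with 62.8 and 62.4 CPM in young and 51.4, 42.7 and 39.2 in old. There the old sets were all lower, with a log2 fold change of -0.47 (SE 0.21) that did not pass (edgeR adjusted p = 0.254). Log2 fold changes of the tested peaks ran from -0.47 to 0.62, though the summed locus was lower in every old set.

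Jund encodes JUND, the JUN protein that is present in resting cells rather than induced from nothing. Its window (chr8:73205000-73240000) held 6 peaks, all tested. The strongest young peak, chr8:73222258-73223257, had 46.8 and 61.5 CPM in young and 56.7, 44.8 and 31.2 in old. The ages overlapped, and its log2 fold change was -0.28 (95% interval -0.72 to 0.16).

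Beyond it, a run of 3 narrow peaks went the other way. The first, chr8:73226238-73226524, had 14.9 CPM in young 1, 4.49 in young 2, and 24.9, 36.5 and 27.2 in the old sets. The last, chr8:73227426-73227677, had 8.97 CPM in young 1, 3.59 in young 2, and 19.1, 40.6 and 34.5 in the old sets. At both peaks young 2 was the lowest set and old 2 the highest, and every old set lay above both young sets. The log2 fold change was 1.83 (SE 0.36, edgeR adjusted p = 0.000791) at the first and 2.47 (SE 0.40, adjusted p = 5.62e-05) at the last. The last was called in all 14 alternatives, with a log2 value of 1.77 without young 2 and 3.06 without young 1. The first rose to 2.70 without young 1, and it was not called without young 2 (log2 fold change 0.99, adjusted p = 0.309) or with cells thinned to 1 depth (1.55, 0.149).

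The middle peak, chr8:73226616-73226954, was singled out after its values were seen. It stood at 20.9 CPM (young 1), 4.49 (young 2), 31.7 (old 1), 58.3 (old 2) and 55.1 (old 3). It was the tallest of the run in the old sets, and its log2 fold change of 2.19 (SE 0.53) lay between those of the called peaks on either side. It fell to 1.19 without young 2 and rose to 3.38 without young 1. The difference between the young sets was wide, and it did not pass (edgeR adjusted p = 0.0646), though it passed in 10 of 14 alternatives. As a restatement of the calls, 21.1% and 8.49% of Jund counts in the young sets fell in the 2 called peaks. In the old sets the shares were 28.6%, 38.0% and 36.8%.

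Atf3 encodes a stress-induced CREB/ATF family factor that pairs with JUN proteins and often represses its targets. Its window (chr1:192970000-193060000) was the least open of the 7: 5 of 13 peaks were tested, and none was called. The strongest peak, chr1:193006250-193007622, was at 24.9 and 39.9 CPM in young and 35.1, 26.6 and 25.2 in old. The young sets spanned the whole range of the old ones. At chr1:193047844-193049109, with the smallest p, the young sets had 27.9 and 35.0 CPM and the old sets 23.6, 21.9 and 18.6. The groups were apart, and the log2 fold change of -0.56 (SE 0.26) did not pass (edgeR adjusted p = 0.264).

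The called peak with the highest fold change lay at Egr1, and it passed the filter on low counts only through the old sets. The window of this gene, which is induced by growth and stress signals, (chr18:35000000-35045000) held 13 peaks, 10 of them tested. At the strongest young peak, chr18:35019782-35021074, the young sets had 82.7 and 107.2 CPM and the old sets 68.7, 83.9 and 53.1. Old 2 was level with young 1, and the log2 fold change of -0.48 (SE 0.21) did not pass (edgeR adjusted p = 0.227).

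The peak chr18:35024654-35025654 stood at 27.9 CPM (young 1), 17.5 (young 2), 52.2 (old 1), 96.4 (old 2) and 110.9 (old 3). The strongest young peak was picked for its young level, so a lower young mean at other peaks follows from that choice. In old 2 and old 3 chr18:35024654-35025654 exceeded that reference, which was not tested. The mean was 22.7 ± 7.35 CPM in young and 86.5 ± 30.6 in old, a log2 fold change of 1.97 (SE 0.31, edgeR adjusted p = 0.000235). A count at this peak was found in 11.6% and 17.2% of cells in both young sets, against 32.7%, 32.9% and 32.4% in old, with no correction for depth. The old shares were nearly equal although median counts per cell differed between those sets from 3604.5 to 9623.

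Next to it, chr18:35025728-35026012 was close to closed in young cells, with 1 and 6 counts (0.996 and 2.69 CPM), while the old sets held 45, 31 and 24 counts (11.8, 16.1 and 15.9 CPM). Every old set was several times above young 2. The log2 fold change was 2.70 (95% interval 1.73 to 3.68, edgeR adjusted p = 0.000275). Both peaks were called in every alternative in which they were tested, 14 for the wider and 13 for the narrow one, including without young 2. Without young 2 the narrow peak's log2 value was 3.78, which then rested on the 1 count of young 1. Restating the calls in shares, the 2 peaks together took 9.70% and 6.68% of Egr1 counts in the young sets, beside 20.5%, 30.6% and 35.8% in the old.

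At lower coordinates than the strongest peak no Egr1 peak was called. Among 3 singled out after their values were seen, chr18:35014858-35015306 had a log2 fold change of -1.02 (SE 0.35, edgeR adjusted p = 0.106), which was -0.24 without young 2 (adjusted p = 0.916) and was called without young 1 (-1.34, 0.0253). Another, chr18:35019424-35019737, had a log2 fold change of -0.82 (SE 0.28, edgeR adjusted p = 0.104). The tall peak chr18:35015345-35016271, at the 98.3rd percentile of CPM, had 71.7 and 54.3 CPM in young and 61.4, 80.2 and 91.6 in old. Its groups overlapped (log2 fold change 0.31, SE 0.22).

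**Figure D3:**
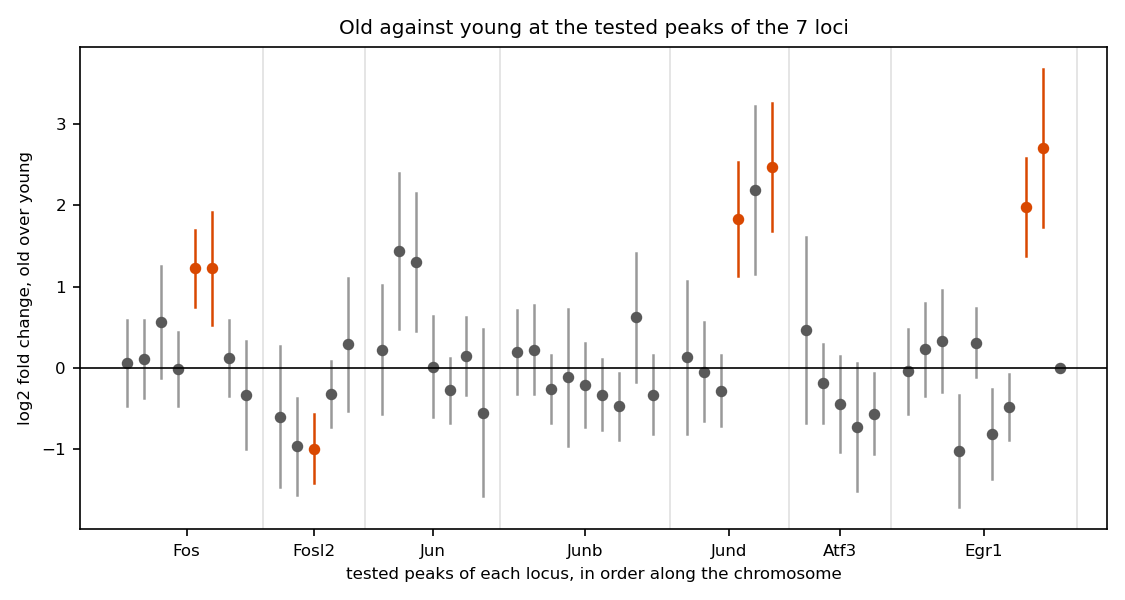
Log2 fold change of old over young, with 95% intervals, at the 50 tested peaks in order along each chromosome; orange marks the 7 called peaks, and 1 Egr1 peak with a value near 0 has no interval. The called values above 1 belong to Fos, Jund and Egr1, 2 peaks each.

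Summed over whole windows, the loci differed less. A locus was tested as the sum of its peaks, together with the 50 kb bins of the genome, of which 4.19% of 26121 were called, and 2 of the 7 loci were called. Jund stood at 102.1 and 85.6 CPM in the young sets, beside 139.0, 182.2 and 151.7 in the old. Every old set was higher, by a log2 fold change of 0.76 (SE 0.15, edgeR adjusted p = 0.00211). Fosl2 stood at 151.4 and 164.4 CPM in young and at 106.5, 105.4 and 106.1 in old. The 3 old sets were almost equal and all lower, by a log2 fold change of -0.58 (SE 0.13, edgeR adjusted p = 0.00908). Both calls were lost without young 2 (adjusted p = 0.0859 for Jund and 0.180 for Fosl2). Fosl2 also lost its call without old 2 (0.0649) and with cells thinned to 1 depth (0.248).

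Fos came next, with 180.9 and 186.2 CPM in young and 233.9, 235.6 and 223.1 in old. The groups did not overlap, but the log2 fold change of 0.33 (SE 0.12) did not pass over all regions (edgeR adjusted p = 0.145). Egr1 had 267.8 and 272.2 CPM in young and 281.2, 330.2 and 320.2 in old, again apart but not called (log2 fold change 0.20, SE 0.12, adjusted p = 0.424). These sums hold the called peaks. Without its 2 called peaks Egr1 had 241.9 and 254.1 CPM in young and 223.5, 229.0 and 205.7 in old, lower in every old set. Fos then had 149.6 and 158.3 in young and 173.0, 166.3 and 145.7 in old, and the ages overlapped. Jund had 80.6 and 78.4 in young and 99.2, 112.9 and 95.9 in old, still higher in every old set. Those peaks were left out for their values, so this is a description.

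The other loci were not called. Junb had 267.8 and 274.7 CPM in young and 262.1, 243.6 and 203.9 in old (log2 fold change -0.19). Atf3 had 94.1 and 125.6 in young and 96.8, 86.2 and 81.0 in old (-0.34). Jun had 167.5 and 130.5 in young and 147.2, 187.4 and 162.5 in old (0.17), and its sign turned without young 2 and without peaks under 300 bp. The exact two-sided permutation test over the 10 splits of 5 sets gave p = 0.1, the smallest it can give, for Jund, Fosl2 and Fos, and p = 0.2 to 0.5 for the other loci.

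**Figure D4:**
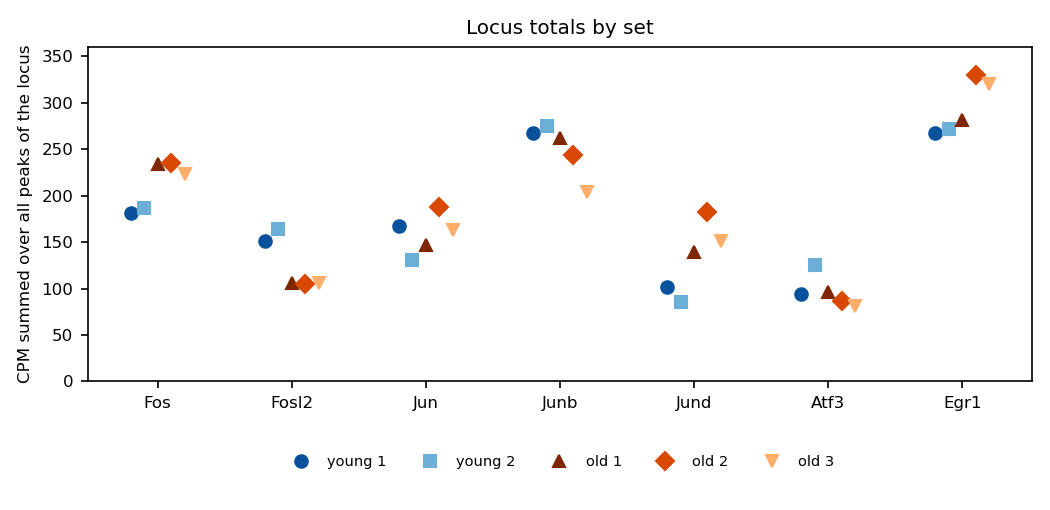
CPM summed over all peaks of each window, by set. The 3 old sets lie above both young sets at Fos, Jund and Egr1 and below both at Fosl2 and Junb.

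Per kb of peak, the order of the loci depended on age. In the young sets Fosl2 (37.4 and 40.7 CPM per kb) and Junb (36.4 and 37.3) stood highest, followed by Jund (36.0 and 30.2) and Egr1 (32.5 and 33.0). In the old sets Jund came first, with 49.0, 64.2 and 53.5, and Fosl2 had 26.3, 26.1 and 26.3. Pooled over the 5 sets, the mean was 46.6 ± 13.7 at Jund (SD), which is first only through the old sets. Then came Egr1 (35.7 ± 3.49), Junb (34.0 ± 3.87), Fosl2 (31.4 ± 7.12), Jun (29.3 ± 3.96), Fos (28.4 ± 3.54) and Atf3 (13.0 ± 2.32). From Jund to Fos, each mean differed from the next by less than their spread. Atf3 stood clear, with its highest set (16.8) below the lowest set of every other locus (24.0 or more). All 7 windows ranked between the 92.9th and the 99.9th percentile of the 50 kb bins by summed CPM, though they are 35 to 90 kb long.

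Since deeper cells show a count at more loci, shares of cells were compared after each cell was thinned to 1906 counts, which removed 4 and 5 young cells and, by old set, 84, 13 and 34 cells. Jund showed the widest gap. A count at Jund was found in 16.4% and 11.6% of cells in both young sets, against 29.7%, 29.2% and 23.5% in old, a difference of 13.5 percentage points (exact two-sided permutation p = 0.1, the smallest possible; 0.35 adjusted over the 7 loci). The shares at Jund, Fos, Egr1 and Fosl2 hold the called peaks, so they are partly a restatement of those calls. Over the strongest Jund peak alone, after thinning, the difference was 0.58 points (exact permutation p = 0.9). Without thinning the Jund shares were 38.7% and 54.3% in young and 63.4%, 51.3% and 40.6% in old, and the ages overlapped.

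After thinning, a count at Egr1 was found in 35.0% and 36.3% of young cells and 41.9%, 39.8% and 43.2% of old cells, apart by a mean of 5.97 points (exact permutation p = 0.1). The unthinned Egr1 difference was -5.86 points. Fosl2 went down, from 25.4% and 21.9% in young to 13.5%, 15.3% and 19.1% in old, a difference of -7.71 points (exact permutation p = 0.2). The other 4 loci differed by -5.04 to 5.08 points. Thinning to 3812 counts, which keeps fewer cells, gave wider differences at every locus except Junb, though Atf3 hardly moved. At 5 loci the groups did not overlap. The differences there were 17.5 points at Jund, 12.8 at Fos, 10.4 at Jun, 10.2 at Egr1 and -14.8 at Fosl2. Each had an exact permutation p of 0.1, and 0.14 adjusted over the 7 loci. Junb (-2.34 points) and Atf3 (-1.67) overlapped. Since 2 sets against 3 cannot give a p under 0.1, none of these differences could pass a threshold of 0.05.

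**Figure D5:**
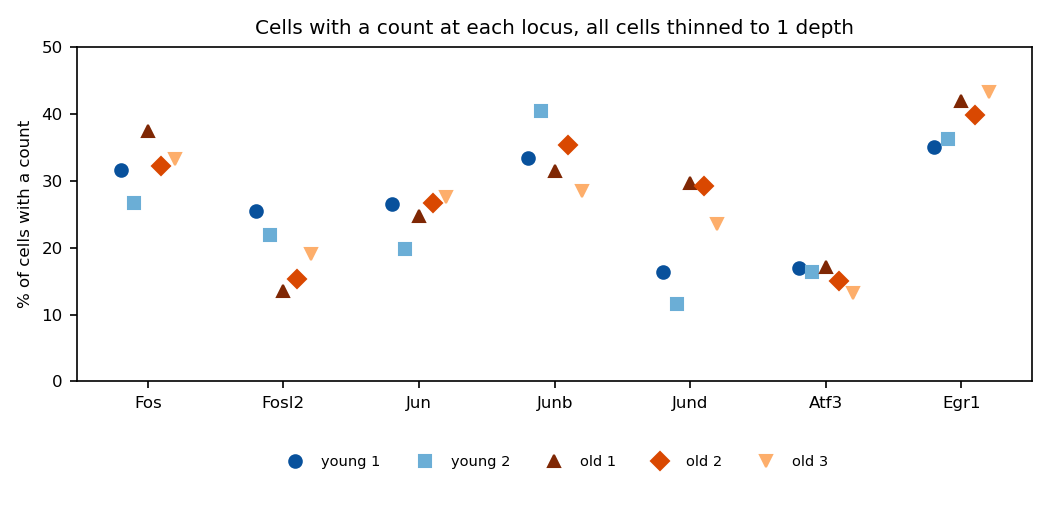
Percent of cells with at least 1 count at each locus, by set, after thinning every cell to the same number of counts. The old sets lie above the young sets at Fos, Jund and Egr1 and below them at Fosl2.

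Within single cells, counts at these loci were sparse. After thinning, a cell had a count at a mean of 1.85 and 1.73 of the 7 loci in the young sets, beside 1.96, 1.93 and 1.89 in the old. Cells with no count at any of the 7 loci made up 14.1% and 15.1% in young and 7.66%, 9.26% and 7.94% in old. The 6 raised peaks are among the peaks of these loci, so both measures are in part a restatement of their calls. A count in any of the 6 raised peaks was found in 11.3% and 8.22% of young cells and in 27.9%, 37.3% and 34.1% of old cells, which restates the choice of those peaks in units of cells and is no further evidence. Cells with raised peaks at 2 or more loci were rare in every set: 1 and 1 in young and 6, 19 and 16 in old. The sets differ in size, and as shares of the thinned cells these were 0.565% and 0.685% in young. In the old sets the shares were 2.70%, 5.18% and 4.71%. These shares also rest on peaks chosen for being higher in old, and are no further evidence.

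The within-set correlation of counts across cells, averaged over the 5 sets, was at most 0.0726 among the 21 pairs of loci, for Jund with Egr1 (0.0215 to 0.194 in single sets). The next was Jun with Fosl2 at 0.0516. For Fos the nearest was Fosl2 (0.0118), for Junb it was Jun (0.0269) and for Atf3 it was Jund (0.0251). The points are cells of 1 set thinned to 1 depth and mostly at 0, and correlations this weak are given as a description only.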

How the data were processed

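Every GEO sample is a single cell. Values in the deposited table are whole-number counts by peak and cell that the authors left unnormalized, as their totals show. Tools in the submitters' processing notes are Bowtie2, Picard, SAMtools, Trim Galore and FastQC, with no version, and the build is mm9. The sources used here do not give the peak caller, any pooling of cells for peak calling, the handling of duplicates or the filters on cells. Kept duplicates, or pooled calling with more old cells, could move counts and the choice of peaks. Positions are as the table names them, and whether starts count from 0 or 1 is not stated.

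Titles gave each cell's group and set. Counts per set were tested with edgeR 4.0.16 in R 4.3.3 (TMM, filterByExpr with a minimum count of 10, robust quasi-likelihood test, adjusted p under 0.05). Set totals of 1159957 to 4181770 counts limit precision, and the common dispersion was 0.0248 for peaks. SE is the log2 fold change over the square root of F, and 95% intervals are 1.96 SE on either side. Shares of cells were compared by exact permutation of the set labels, with the Benjamini-Hochberg adjustment from scipy 1.17.1. The edgeR step was tested on simulated data. Alternatives were DESeq2 1.42.0, library totals, other count and cell filters, binarized cells, thinning, equal cell numbers, other bins, narrow peaks left out, a replicate block and each set left out. Set numbers pair nothing in the labels, and deviations of same-numbered sets correlated at -0.0758 and -0.000706, so they were not treated as pairs.

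Peaks named are, in each window, the one with the highest CPM, every called peak and the one with the smallest p. Others named are the strongest young peak of a window and those said to be singled out. The members, lists and rules were chosen with earlier results of these data known. Other immediate early genes and cell type markers need an mm9 annotation and were not analysed here.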

Additional observations from a re-analysis of the deposited data

How the results depend on the processing

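Of 7 peaks called, 3 were called without young 2 and up to 9 under other alternatives. Those higher in old numbered 6, and 3 to 7 with 1 set left out. The 1 peak higher in young became 0 with thinned cells, and 0 to 2 with 1 set left out. With the set number as a replicate block, 8 of 50 peaks were called (1.89% of all). Fosl2 as a locus then lost its call (log2 -0.57, edgeR adjusted p = 0.105). It also lost it with thinned cells (-0.59) and equal cell numbers (-0.49), and ran from -0.64 to -0.51 with 1 set left out. Jund lost its call without peaks under 300 bp (0.37, adjusted p = 0.213), and ran from 0.63 (without young 2) to 0.87 with 1 set left out. The cause of these changes was not tested.

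Some signs turned. Jun as a locus was -0.0749 without peaks under 300 bp. The strongest Fos peak was 0.0839 with library totals, 0.0713 with a minimum count of 30, 0.12 with binarized cells, 0.0237 without cells under 2000 counts, 0.27 with thinned cells and 0.10 with the block. Thinned cells also turned Junb chr8:87509137-87510486 (0.061) and the strongest peaks of Jund (0.22) and Fosl2 (0.15). Without thinning, share differences turned at Jun (-9.17 points), Fos (-2.82) and Egr1 (-5.86), and, without cells under 2000 counts, at Jun (-4.35) and Egr1 (-1.46). With 1 set left out, log2 values ran from -0.0158 to 0.33 at the Jun locus, -0.15 to 0.14 at the strongest Fos peak, -0.51 to 0.0093 at that of Fosl2 and -0.42 to 0.28 at that of Atf3, and the Jun share from -0.179 to 6.51 points. Over the strongest peak alone, share differences were -2.02 at Jun, 0.056 at Fosl2 and -4.38 at Egr1. At Jund the difference over that peak kept its sign but was 0.58 points.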
